A study of Homo sapiens with 18 samples.

Results

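The genes described here are 10 components of bone morphogenetic protein (BMP) and activin signalling: the ligand genes *BMP2*, *BMP4*, *BMP7* and *INHBA*, the inhibitor genes *GREM1* and *BAMBI*, and the target genes *ID1*, *ID2*, *ID3* and *ID4*. They were chosen by name, and all 10 were found among the 40266 gene symbols of the expression table. RNA was sequenced in 18 libraries of 2 human pancreatic ductal adenocarcinoma (PDAC) lines, with 3 libraries in each of 6 groups. Panc1 was derived from a primary tumor and serves as the mesenchymal-like model, whereas Panc89 comes from a lymph node metastasis and serves as the epithelial model. Each line was studied as parental cells, as Holoclone cells and as Paraclone cells, all untreated and grown in RPMI medium with fetal calf serum. Holoclone colonies are tight and are used as the stem cell-like variant, and Paraclone colonies are dispersed and stand for the non-stem variant. Each Holoclone or Paraclone group was grown from 1 single-cell clone of its line, and the 3 libraries of a group are RNA of 3 passages. The p-values below therefore measure the spread between passages of a culture and not the spread between clones.

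BMPs and activins are secreted dimers of the TGF-beta superfamily that bind pairs of type I and type II serine/threonine kinase receptors. BMP receptors phosphorylate SMAD1, SMAD5 and SMAD9, activin receptors phosphorylate SMAD2 and SMAD3, and both kinds of SMAD act on DNA together with SMAD4. The ID genes are the classical direct targets of BMP signalling, and their proteins bind E proteins and keep these and other basic helix-loop-helix factors off DNA. Activin and BMP signals have been studied in pancreatic cancer in connection with stemness, epithelial-mesenchymal transition and invasion.

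Levels are given in TPM, a share of all transcripts that is corrected for transcript length and library size, and differences are on the log2(TPM + 1) scale. On this scale a difference is smaller than the true log2 fold change for genes near or under 1 TPM. Groups were compared with limma-trend fitted to 16093 genes, those that reached 1 TPM in 3 or more of the libraries, and a gene was called at an adjusted p under 0.05. The table holds no counts, so the depth of the libraries is unknown. Between 12932 and 14199 genes reached 1 TPM in a library, and the share of mitochondrial transcripts was 5.62% to 9.44%. The median difference of all genes tested was −0.18 for parental Panc89 minus parental Panc1, 0.19 for Panc1 Holoclone minus Paraclone, 0.09 for the same comparison in Panc89 and −0.11 for the difference between these clone changes. Median-of-ratios scaling of the TPM brought these medians to values between −0.00237 and 0.0145. It moved the share of called genes that were higher from 41.6% to 51.6% between the parental cells, from 73.3% to 46.8% between the Panc1 clones, from 62.8% to 49.1% between the Panc89 clones and from 42.0% to 51.9% for the difference. The mesenchymal marker *VIM* averaged 2465 to 4318 TPM in the Panc1 groups and 0.0653 to 0.361 TPM in the Panc89 groups. *CDH1* averaged 0.990 to 2.84 and 75.3 to 98.0 TPM. By group means *ZEB1* and *SPARC* went with *VIM*, and *KRT7* and *EPCAM* with *CDH1*. *KRT19* averaged 222 to 1225 TPM in the Panc1 groups and 1280 to 1651 TPM in the Panc89 groups, and its libraries overlapped between the lines. *FN1* was higher in Panc89 (1.20 to 13.6 TPM) than in Panc1 (0.213 to 0.464 TPM), and *CDH2* overlapped between the lines. *KRT8* and *KRT18* averaged 1411 and 1463 TPM in parental Panc1 and 762 and 1103 TPM in parental Panc89. Among markers of other cells, the 3 endothelial genes summed to 55.2 to 69.1 TPM in parental Panc89 libraries, 1.01 to 8.90 TPM in the Panc89 clones and at most 0.273 TPM in Panc1. *PECAM1* made up most of the sum in parental Panc89 (53.2 to 64.7 TPM), where *CDH5* was at 1.99 to 5.07 TPM, and *VWF* was at 0.355 TPM at most in any library. The 4 leukocyte genes summed to 12.7 to 65.9 TPM in Panc89 and to 52.4 to 151 TPM in Panc1, most of it *CD68*, which is not restricted to leukocytes, whereas *CD14* was at 4.86 TPM at most and *PTPRC* and *CD3E* were under 1 TPM in every library. The 7 fibroblast genes summed to 1.44 to 27.4 TPM, most of it *COL1A1* (26.0 TPM at most), with each of the other 6 at 1.15 TPM at most in any library. What part these levels have in the results below was not tested.

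The 10 genes lay at very different levels, which TPM allow to be compared between genes. *ID1* was the most abundant, with 52.0 to 969 TPM over the 18 libraries, followed by *ID3* with 19.9 to 207 TPM. *INHBA* ranged from 0.368 to 74.4 TPM, *ID2* from 0.724 to 15.2 TPM, *BMP2* from 0.0548 to 14.5 TPM, *ID4* from 0 to 12.9 TPM, *BAMBI* from 0.0409 to 11.5 TPM, *BMP7* from 0 to 10.4 TPM and *BMP4* from 0 to 2.26 TPM. *GREM1*, a secreted antagonist that captures BMP2, BMP4 and BMP7, was at 0.127 TPM at most, reached 1 TPM in 0 libraries and was not tested. Its 3 highest values were those of the Panc89 Paraclone libraries, at 0.127, 0.0308 and 0.0801 TPM. The other 9 genes passed the filter on low values. *BMP2*, *BMP4*, *BAMBI* and *ID4* reached 1 TPM in Panc89 libraries only and passed it through that line, so that a higher level in Panc89 was built into their being tested. *BMP7* reached 1 TPM in 12 libraries and *ID4* in 6, all of parental or Holoclone cells. No Paraclone library had a part in their being tested, although the 3 parental Panc89 libraries alone met the filter for both genes.

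**Figure D1:**
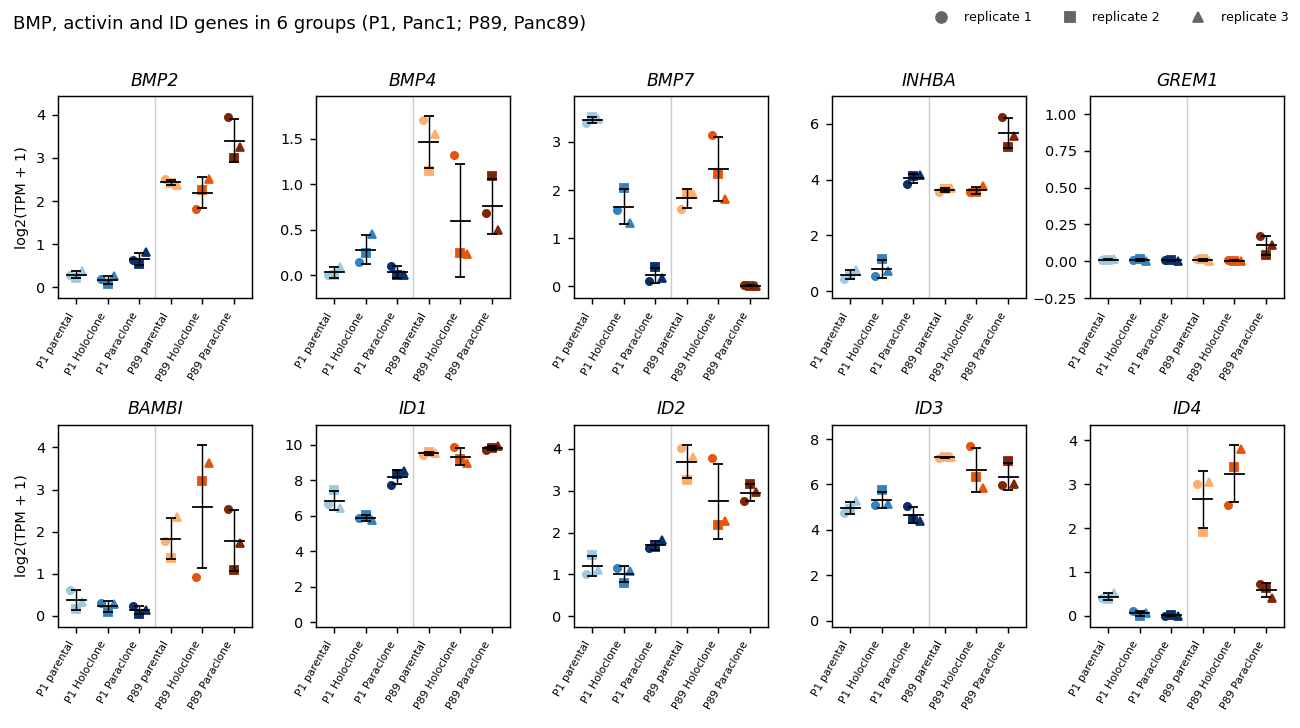
Levels of the 10 genes in the 6 groups. Each panel shows log2(TPM + 1) of every library (circle, square and triangle for replicates 1, 2 and 3), with a line for the mean and bars for the SD of 3 libraries, and each panel has its own axis. All Panc89 libraries lie above all Panc1 libraries for *BMP2*, *ID1*, *ID2* and *ID3*, whereas *BMP7* and *INHBA* separate Holoclone from Paraclone cells in both lines.

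The promoter windows of *ID1*, *ID3* and *ID4* are shown because these genes behaved differently between the clones: *ID1* was called between the Panc1 clones, *ID4* between the Panc89 clones and *ID3* in neither. They are 240 bases each, end 10 bases before the RefSeq start, read 5′ to 3′ on the gene's strand and come from RefSeq on GRCh38.p14. They lie at chr20:31605039-31605278 on the plus strand for *ID1*, chr1:23559512-23559751 on the minus strand for *ID3* and chr6:19837120-19837359 on the plus strand for *ID4*. Capitals mark matches, on either strand, to the GC-rich elements GGAGCC and GGCGCC that SMAD proteins can bind.
ID1: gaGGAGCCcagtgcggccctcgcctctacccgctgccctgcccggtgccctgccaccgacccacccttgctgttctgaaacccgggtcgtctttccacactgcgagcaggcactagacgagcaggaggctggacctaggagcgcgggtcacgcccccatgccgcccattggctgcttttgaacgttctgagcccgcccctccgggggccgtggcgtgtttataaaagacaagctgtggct
ID3: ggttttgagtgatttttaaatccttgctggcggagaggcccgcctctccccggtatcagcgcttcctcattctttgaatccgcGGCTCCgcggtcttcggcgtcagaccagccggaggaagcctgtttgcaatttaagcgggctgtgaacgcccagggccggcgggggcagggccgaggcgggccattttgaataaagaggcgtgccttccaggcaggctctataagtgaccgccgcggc
ID4: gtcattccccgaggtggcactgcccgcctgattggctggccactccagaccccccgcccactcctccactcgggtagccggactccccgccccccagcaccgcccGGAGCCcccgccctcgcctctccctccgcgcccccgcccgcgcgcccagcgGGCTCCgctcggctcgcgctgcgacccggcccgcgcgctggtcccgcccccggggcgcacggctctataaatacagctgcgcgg
At least 1 of both motifs was found in 38.1% of the 35116 windows of the table. GGAGCC itself was found in 29.4% of them, and *ID1* and *ID3* held 1 match to it and *ID4* 2 matches, with no bases shared between matches. GGCGCC, found in 15.5% of windows, had 0 matches in these 3 windows, and the window of *ID2* held 0 matches to either motif. The window of *BAMBI*, a target of the same SMADs in many cells, held 4 matches to GGAGCC and 3 to GGCGCC. RefSeq windows were found for 8 of the 10 genes, all but *BMP2* and *BMP7*. A match is a run of letters and not a measured binding site, and the known BMP response element of *ID1* lies farther upstream than this window.

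Between the parental cells, ligand and ID genes were higher in Panc89, and *BMP7* was higher in Panc1. All 9 tested genes were called, 8 of them higher and 1 lower in Panc89. Of all genes tested, 66.0% were called in this comparison, 27.5% as higher and 38.5% as lower. The 4 genes that passed the filter through Panc89 alone are among the 8, so the count itself is a description. Since the libraries are of bulk cells, fewer cells that express a gene and less RNA per cell cannot be told apart.

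Among the ligands, *INHBA*, which encodes the beta A subunit that forms activin A, had the largest difference. It was at 0.368, 0.480 and 0.709 TPM in the parental Panc1 libraries and at 10.7, 11.7 and 11.8 TPM in the parental Panc89 libraries, a difference of 3.03 ± 0.22 (SE; limma-trend, adjusted p = 6.47e-09). *BMP2*, a potent osteogenic BMP, was at 0.157 to 0.299 TPM in Panc1 and at 4.17 to 4.66 TPM in Panc89, with a difference of 2.14 ± 0.21 (adjusted p = 2.56e-07). *BMP4*, its close relative, was listed at 0 in 2 of 3 parental Panc1 libraries, was at 0.0695 TPM in the other and at 2.26, 1.21 and 1.92 TPM in Panc89 (difference 1.43 ± 0.25, adjusted p = 9.45e-05).
In each of these genes every Panc89 library lay above every Panc1 library, although *BMP4* was at 2.26 TPM at most.

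*BMP7*, a BMP of another subgroup with known roles in kidney and epithelial differentiation, had the opposite order. Its levels were 9.51, 10.4 and 10.2 TPM in parental Panc1 and 2.04, 2.85 and 2.79 TPM in parental Panc89 cells, a difference of −1.64 ± 0.26 (adjusted p = 3.80e-05). It was thus the ligand gene of the 4 with the highest level in parental Panc1 cells.

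All ID genes were higher in parental Panc89 cells, by 2.22 to 2.67 on the log2 scale. *ID1* was at 97.8, 173 and 84.3 TPM in Panc1 and at 687, 754 and 729 TPM in Panc89 (difference 2.67 ± 0.26, adjusted p = 1.84e-07). *ID3*, which like *ID1* encodes a general inhibitor of E proteins, was at 25.8, 29.1 and 37.6 TPM against 144, 145 and 146 TPM (difference 2.22 ± 0.38, adjusted p = 9.50e-05). In both genes the lowest Panc89 library lay far above the highest Panc1 library. *ID2* was at 1.02 to 1.78 TPM in Panc1 and at 8.52 to 15.2 TPM in Panc89, with a difference of 2.49 ± 0.33 (adjusted p = 5.73e-06). *ID4*, whose expression is more tissue-restricted, was at 0.295 to 0.441 TPM and at 2.75 to 7.31 TPM, with a difference of 2.22 ± 0.29 (adjusted p = 6.44e-06). *BAMBI*, a decoy receptor without a kinase domain that dampens TGF-beta and BMP signals, was at 0.545, 0.130 and 0.258 TPM in Panc1 and at 2.42, 1.60 and 4.12 TPM in Panc89. Its groups did not overlap, but the difference of 1.46 ± 0.52 (adjusted p = 0.0215) was the least certain of the 9: the adjusted p was 0.0605 without Panc1 parental replicate 2, 0.0502 without Panc1 parental replicate 3 and 0.0872 without Panc89 parental replicate 3.

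**Figure D2:**
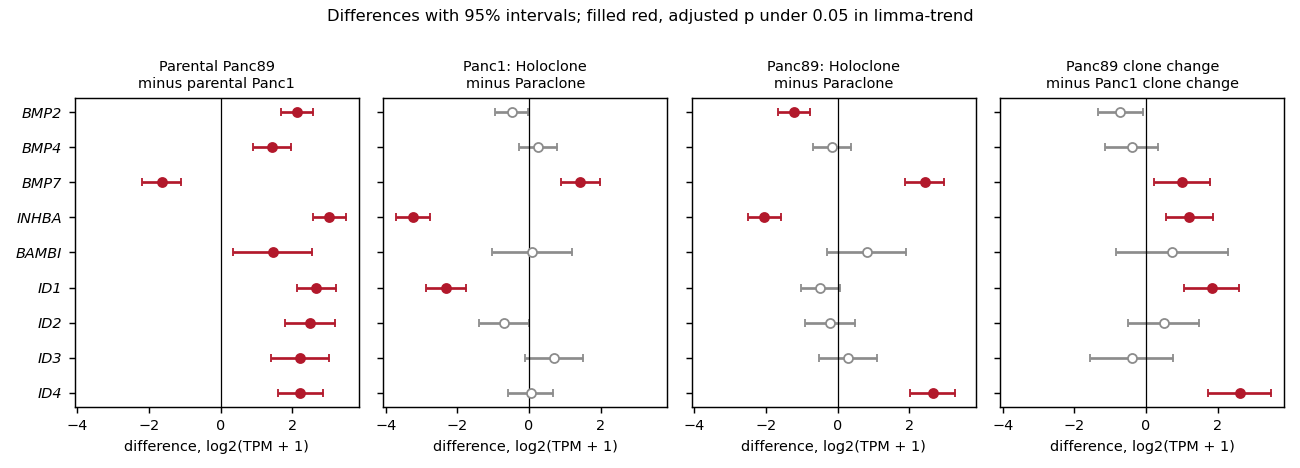
Differences of the 9 tested genes in 4 comparisons, on the log2(TPM + 1) scale, with 95% intervals from limma-trend. Filled red points have an adjusted p under 0.05 over all 16093 genes. *BMP7* is the 1 gene lower in parental Panc89 and is higher in Holoclone than in Paraclone cells of both lines, *INHBA* is lower in Holoclone cells of both lines, and *ID1* and *ID4* have wide gaps between the lines in the last panel.

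Between Panc1 Holoclone and Paraclone cells, *INHBA* and *ID1* were lower and *BMP7* was higher in the Holoclone cells. These 3 of the 9 tested genes were called, against 37.3% of all genes tested. The 2 lower ones compare with 9.97% of all genes called as lower, and the 1 higher one with 27.4% called as higher.

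*INHBA* was at 0.453, 1.21 and 0.641 TPM in Panc1 Holoclone and at 13.3, 16.4 and 17.0 TPM in Panc1 Paraclone cells, a difference of −3.24 ± 0.22 (limma-trend, adjusted p = 2.02e-08). The parental Panc1 libraries overlapped the Holoclone libraries, so that *INHBA* was high in the Paraclone cells alone of the 3 Panc1 groups. *ID1* was likewise highest in the Paraclone cells, with 56.8, 64.4 and 52.0 TPM in Holoclone, 84.3 to 173 TPM in parental and 213, 321 and 360 TPM in Paraclone cells. The 3 groups did not overlap, and the Holoclone cells differed from the Paraclone cells by −2.32 ± 0.26 (adjusted p = 4.64e-06). *BMP7* was at 2.00, 3.14 and 1.50 TPM in Holoclone and at 0.0781, 0.321 and 0.121 TPM in Paraclone cells (difference 1.43 ± 0.26, adjusted p = 4.40e-04). Both clones lay below the parental cells, whose 3 libraries were near 10 TPM.

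The other genes were not called between the Panc1 clones. *ID2* was at 1.22, 0.724 and 1.11 TPM in Holoclone and at 2.09, 2.13 and 2.53 TPM in Paraclone cells, with a difference of −0.69 (adjusted p = 0.111) although the groups did not overlap. This depended on the fit: its adjusted p lay between 0.00993 and 0.259 over 14 alternative settings and passed the threshold in 4 of them, both rescalings of the TPM included. *BMP2* was at 0.0548 to 0.190 TPM and at 0.450 to 0.759 TPM, with a difference of −0.49 (adjusted p = 0.0833) that grew to −1.60 with a pseudocount of 0.1. *ID3* had the opposite sign from *ID1* and *ID2*, with 33.3, 52.4 and 34.4 TPM in Holoclone and 31.9, 21.5 and 19.9 TPM in Paraclone cells (difference 0.69, adjusted p = 0.177). *BMP4*, *BAMBI* and *ID4* were at 0.368 TPM at most in the libraries of both clones.

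Between Panc89 Holoclone and Paraclone cells, *BMP7* and *ID4* were higher and *INHBA* and *BMP2* were lower in the Holoclone cells. These 4 of the 9 tested genes were called, against 35.7% of all genes tested, with 22.4% called as higher and 13.3% as lower.

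*BMP7* was at 7.89, 4.07 and 2.53 TPM in Panc89 Holoclone cells, listed at 0 in 2 of 3 Paraclone libraries and at 0.0102 TPM in the remaining one (difference 2.43 ± 0.26, adjusted p = 2.98e-06). The parental libraries, at 2.04 to 2.85 TPM, overlapped the lower end of the Holoclone libraries. In both lines *BMP7* reached 1 TPM in parental and Holoclone libraries only, so its being tested did not rest on Paraclone cells. *INHBA* was at 10.7, 10.7 and 12.5 TPM in Holoclone and at 74.4, 35.2 and 46.0 TPM in Paraclone cells, a difference of −2.04 ± 0.22 (adjusted p = 3.57e-06). As in Panc1, parental and Holoclone libraries of *INHBA* overlapped and the Paraclone libraries lay above both. *BMP2* had the same order, with 2.51, 3.78 and 4.70 TPM in Holoclone, 4.17 to 4.66 TPM in parental and 14.5, 7.03 and 8.45 TPM in Paraclone cells (Holoclone minus Paraclone −1.21 ± 0.21, adjusted p = 3.70e-04). Replicate 1 of the Paraclone cells was the highest library for both *BMP2* and *INHBA*.

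*ID4* was at 4.74, 9.52 and 12.9 TPM in Panc89 Holoclone and at 0.653, 0.536 and 0.329 TPM in Paraclone cells, a difference of 2.65 ± 0.29 (adjusted p = 4.75e-06). The parental libraries, at 2.75 to 7.31 TPM, overlapped the Holoclone libraries, so that of the 3 Panc89 groups the Paraclone cells stood apart. *ID4* reached 1 TPM in parental and Holoclone libraries of Panc89 only, so its being tested did not rest on Paraclone cells. The other ID genes were not called between the Panc89 clones. *ID1* was at 912, 571 and 498 TPM in Holoclone and at 834, 876 and 969 TPM in Paraclone cells (difference −0.48, adjusted p = 0.161).

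Replicate 1 of the Panc89 Holoclone cells stood apart from the other 2 libraries of its group in most of these genes. Against the mean of the other 2 it was higher by 1.08 for *BMP4*, 1.55 for *ID2*, 1.61 for *ID3*, 1.07 for *BMP7* and 0.77 for *ID1*. It was lower for *BAMBI* (−2.50), *ID4* (−1.08) and *BMP2* (−0.58), and by little for *INHBA* (−0.103). In TPM, *BMP4* was at 1.50 in it and at 0.186 and 0.181 in replicates 2 and 3, *ID2* at 12.8 against 3.55 and 3.87, *ID3* at 207 against 80.2 and 56.2, and *BAMBI* at 0.904 against 8.28 and 11.5. The same library had the largest number of genes at 1 TPM of all 18 (14199) and the lowest mitochondrial share (5.62%). Its mean correlation with its group was 0.970, and what these have to do with its levels was not tested. The lowest such correlation of all 18 (0.962) was that of Panc89 Paraclone replicate 2. That library stood apart in *ID3*, at 130 TPM against 62.7 and 63.5 TPM in Paraclone replicates 1 and 3.

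Without Holoclone replicate 1, 8 of the 9 genes were called between the Panc89 clones instead of 4. Of all 16093 genes tested, 5905 were called without it, against 5746 with all libraries. *BMP4* (difference −0.51), *ID1* (−0.74) and *ID2* (−0.72) were then called as lower and *BAMBI* (1.64) as higher in Holoclone cells. With all libraries, these differences were −0.15 for *BMP4* (adjusted p = 0.677), −0.20 for *ID2* (adjusted p = 0.677) and 0.81 for *BAMBI* (adjusted p = 0.251). *ID3* was not called either way, and its difference turned from 0.28 to −0.26. The 4 called genes kept their calls without it.

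**Figure D3:**
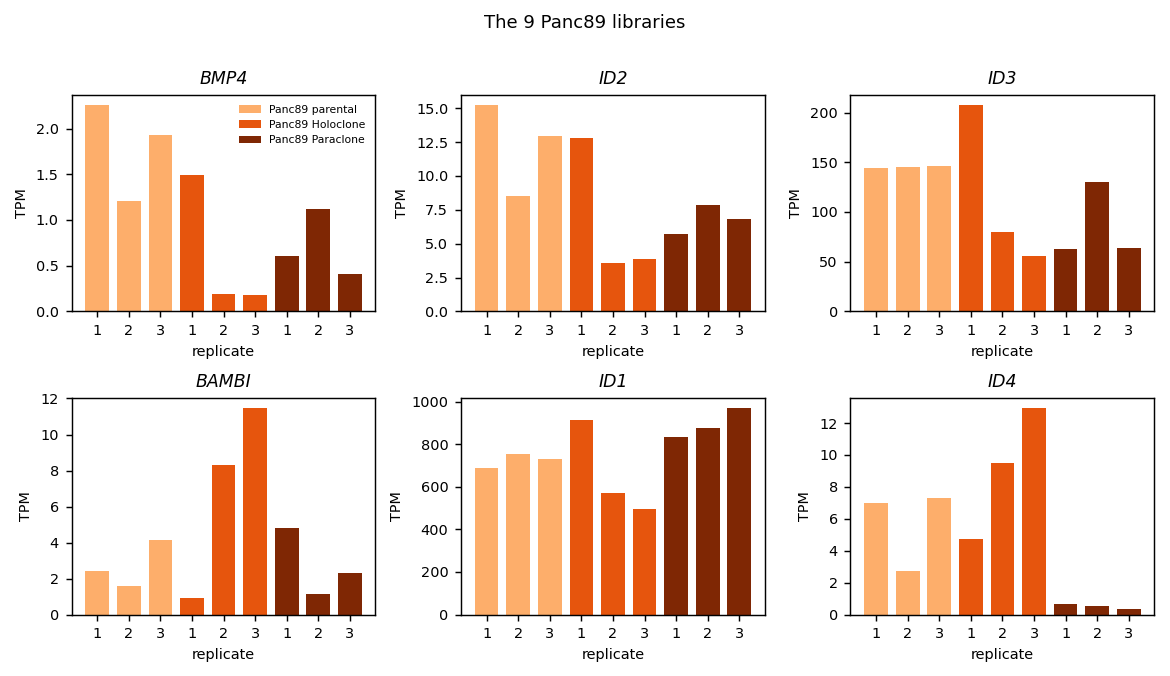
Levels of *BMP4*, *ID2*, *ID3*, *BAMBI*, *ID1* and *ID4* in the 9 Panc89 libraries. Bars give TPM from 0 for replicates 1 to 3 of parental, Holoclone and Paraclone cells, in shades from light to dark. Holoclone replicate 1 has the highest *ID3* (207 TPM) and the lowest *BAMBI* (0.904 TPM) of the 9 libraries, and *BMP4* and *ID2* rank the libraries in nearly the same order.

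Across the 9 Panc89 libraries, the low levels of *BMP4* ran with those of *ID2* and *ID3*. Pearson's r of the log2 values was 0.966 for *BMP4* and *ID2* (Spearman's rho 0.967) and 0.855 for *BMP4* and *ID3* (rho 0.817). With group means removed, r was 0.946 and 0.882, and it was 0.969 and 0.881 over the 8 libraries without Holoclone replicate 1. Leaving out the 2 libraries farthest from the median of *BMP4* gave 0.930 and 0.827 over 7. For *BMP4* and *ID1*, r was 0.362, with 0.683 after group means were removed and −0.749 without the 2 farthest libraries, so that its sign depended on the libraries taken. *BAMBI* ran against *ID3*, with r = −0.720, and without its 2 farthest libraries r was −0.573. It also ran against *ID1* (r = −0.819, and −0.365 without the same 2 libraries). *ID1* ran against *ID4*, with r = −0.822, and −0.709 without the 2 libraries farthest from the median of *ID1*. In the 9 Panc1 libraries *BMP4* was at most at 0.368 TPM, and r was −0.544 with *ID2* and 0.624 with *ID3*. There *ID1* ran with *ID2* (r = 0.912) and against *ID3* (r = −0.766), and both values shrank without the 2 libraries farthest from the median of *ID1*, to 0.823 and −0.446. With group means removed they were 0.566 and −0.380. Among the ligands, *BMP2* ran with *INHBA* in Panc89 (r = 0.940) and Panc1 (r = 0.875), and *BMP7* ran against *INHBA* (r = −0.903 and −0.832). With group means removed, *BMP2* and *INHBA* had r = 0.858 in Panc89 and −0.0951 in Panc1, where the shared pattern was that of the groups. *BMP7* and *INHBA* had r = −0.119 in Panc89 and 0.703 in Panc1 on the same values, so the opposed levels were those of the groups. These values describe libraries that share a line and a culture, and not all pairs of genes are given.

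The clone changes were set against each other with the difference of the Holoclone minus Paraclone change between the lines. It was called for 4 of the 9 genes, all with a larger value in Panc89, against 35.1% of all genes tested, 14.8% with a larger and 20.4% with a smaller value in Panc89. For *ID4* the difference was 2.61 ± 0.41 (SE; limma-trend, adjusted p = 1.71e-04), with *ID4* at 0.0710 TPM at most in both Panc1 clones. *ID1* had a difference of 1.83 ± 0.36 (adjusted p = 0.00103): it was lower in Panc1 Holoclone than in Panc1 Paraclone cells, and its change in Panc89 of −0.48 did not pass the test. *INHBA* was lower in Holoclone cells of both lines and by less in Panc89, with a difference of 1.20 ± 0.31 (adjusted p = 0.00691). *BMP7* was higher in Holoclone cells of both lines and by more in Panc89 (difference 1.01 ± 0.36), but its adjusted p of 0.0422 passed in 8 of 20 alternative settings, over which it reached 0.109. The remaining 5 genes had intervals that included 0 or an adjusted p over the threshold: the difference was −0.72 for *BMP2* (95% interval −1.35 to −0.0823, adjusted p = 0.0750), 0.73 for *BAMBI* (−0.83 to 2.29), 0.49 for *ID2* (−0.49 to 1.47), −0.41 for *ID3* (−1.55 to 0.74) and −0.40 for *BMP4* (−1.14 to 0.34).

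Beside these 10 genes, a list of 68 further ligands, receptors, antagonists, SMADs, targets and E proteins was read from the same fit, of which 44 were tested. Of these, 5 reached 1 TPM in Panc1 libraries only (*BMP5*, *GDF9*, *INHA*, *CHRD* and *SMAD9*) and 5 in Panc89 libraries only (*ACVR1C*, *RGMA*, *KCP*, *ATOH8* and *DLX5*), so that their direction between the parental lines was built into their being tested. Between the parental cells, 12 of the 44 were higher and 23 lower in Panc89 (27.5% and 38.5% of all genes), with a median of −0.46 beside −0.18 for all genes, and both counts include 5 genes of this kind. Between the Panc1 clones 15 were higher and 6 lower in Holoclone cells (27.4% and 9.97% of all genes, median 0.33 beside 0.19). Between the Panc89 clones 11 were higher and 9 lower (22.4% and 13.3% of all genes, median −0.03 beside 0.09), which either rescaling of the TPM turned to 9 higher and 11 lower. The whole list had no common direction between the clones of Panc89.

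*INHBB* and *INHBE*, genes of other activin subunits, had other orders between the clones than *INHBA*. *INHBB*, which encodes the beta B subunit of activin B, was at 12.9, 16.2 and 11.4 TPM in Panc1 Holoclone and at 0.452, 0.251 and 0.350 TPM in Panc1 Paraclone cells, a difference of 3.41 ± 0.19 (adjusted p = 1.79e-09). *INHBA* had the opposite order in the same libraries, so that *INHBB* was the more abundant of both genes in every Holoclone and *INHBA* in every Paraclone library of Panc1. In Panc89, *INHBB* was at 1.28 TPM at most and was also higher in Holoclone cells, by 0.69 (adjusted p = 0.00945). *INHBE*, a subunit gene known mainly from liver, was at 8.17, 56.8 and 92.9 TPM in Panc89 Holoclone and at 4.39, 0.422 and 3.78 TPM in Paraclone cells (difference 3.47 ± 0.69, adjusted p = 0.00105). Its adjusted p was 0.0611 when only these groups were fitted, and its lowest Holoclone library was again replicate 1. Between the parental cells *INHBE* was higher in Panc89, as was *INHBA*, with 12.3 to 24.2 TPM against 0.628 to 3.37 TPM (difference 2.67 ± 0.69, adjusted p = 0.00308), and *INHBB* was lower by −1.86 (adjusted p = 3.32e-07). *BMP6*, a BMP of the same subgroup as *BMP7*, was lower in parental Panc89 (3.23 to 4.49 TPM) than in parental Panc1 cells (25.1 to 48.9 TPM), a difference of −3.09 ± 0.65 (adjusted p = 5.88e-04). Between the Panc89 clones it was at 2.17 to 2.23 TPM in Holoclone cells and at 51.3, 2.23 and 22.6 TPM in Paraclone cells, and the call (difference −2.31 ± 0.65, adjusted p = 0.0112) was lost without Paraclone replicate 1 (−1.45, adjusted p = 0.0613), without replicate 3 (−2.02, adjusted p = 0.0517) and with only these groups fitted (adjusted p = 0.162). Of the 8 tested genes of ligands and of activin or inhibin subunits, 1 was higher and 6 lower in parental Panc89 (27.5% and 38.5% of all genes). Of the 6, 3 were tested through Panc1 alone (*BMP5*, *GDF9* and the inhibin subunit gene *INHA*).

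*FST* and *FSTL3*, genes of secreted activin antagonists, had opposite orders in the lines. *FST* encodes follistatin, which binds activins nearly irreversibly, and was at 205, 222 and 271 TPM in Panc89 Holoclone, 84.6, 21.0 and 50.7 TPM in Paraclone and 14.2 to 26.1 TPM in parental cells. The Holoclone cells thus had the highest *FST* of the Panc89 groups, with a difference of 2.33 ± 0.35 from Paraclone cells (adjusted p = 8.79e-05). In Panc1, *FST* was at most at 0.462 TPM in Holoclone and at 2.98 to 3.50 TPM in Paraclone cells (difference −1.81 ± 0.35, adjusted p = 7.46e-04), and the clone changes of the lines differed by 4.14 ± 0.49 (adjusted p = 1.08e-05). *FSTL3*, a related activin-binding protein, went the other way in Panc89, with 16.9, 12.1 and 12.2 TPM in Holoclone and 189, 94.8 and 148 TPM in Paraclone cells (difference −3.26 ± 0.21, adjusted p = 1.08e-08). In Panc1 it was higher in Holoclone cells by 0.87 (adjusted p = 0.00340), and the lines differed by −4.13 ± 0.29 (adjusted p = 4.47e-08).

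*NOG* encodes noggin, which binds BMP2 and BMP4, and was lower in Holoclone cells of both lines. It was at 6.44, 7.55 and 6.39 TPM in Panc1 Holoclone and at 42.3, 24.5 and 22.5 TPM in Panc1 Paraclone cells (difference −1.93 ± 0.32, adjusted p = 2.03e-04). In Panc89 it was at 1.20, 0.392 and 0.451 TPM and at 8.26, 2.31 and 5.10 TPM (difference −1.80 ± 0.32, adjusted p = 3.92e-04), and the 2 changes differed by 0.13 (95% interval −0.82 to 1.08). *KCP*, a cysteine-rich modulator of BMP and TGF-beta ligands, was lower in Panc89 Holoclone cells too, by −2.54 ± 0.34 (adjusted p = 3.04e-05). Between the parental cells *FST* was higher in Panc89 by 4.07, whereas *CRIM1* (−3.46), *NOG* (−3.03) and *TWSG1* (−1.83), which bind BMPs, were lower. In all, the antagonist list held 8 tested genes, the modulator *KCP* included. Of these, 3 were higher and 5 lower in parental Panc89 (27.5% and 38.5% of all genes). In Panc1 Holoclone cells 2 were higher and 2 lower (27.4% and 9.97%), and in Panc89 Holoclone cells 1 was higher and 4 lower (22.4% and 13.3%).

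**Figure D4:**
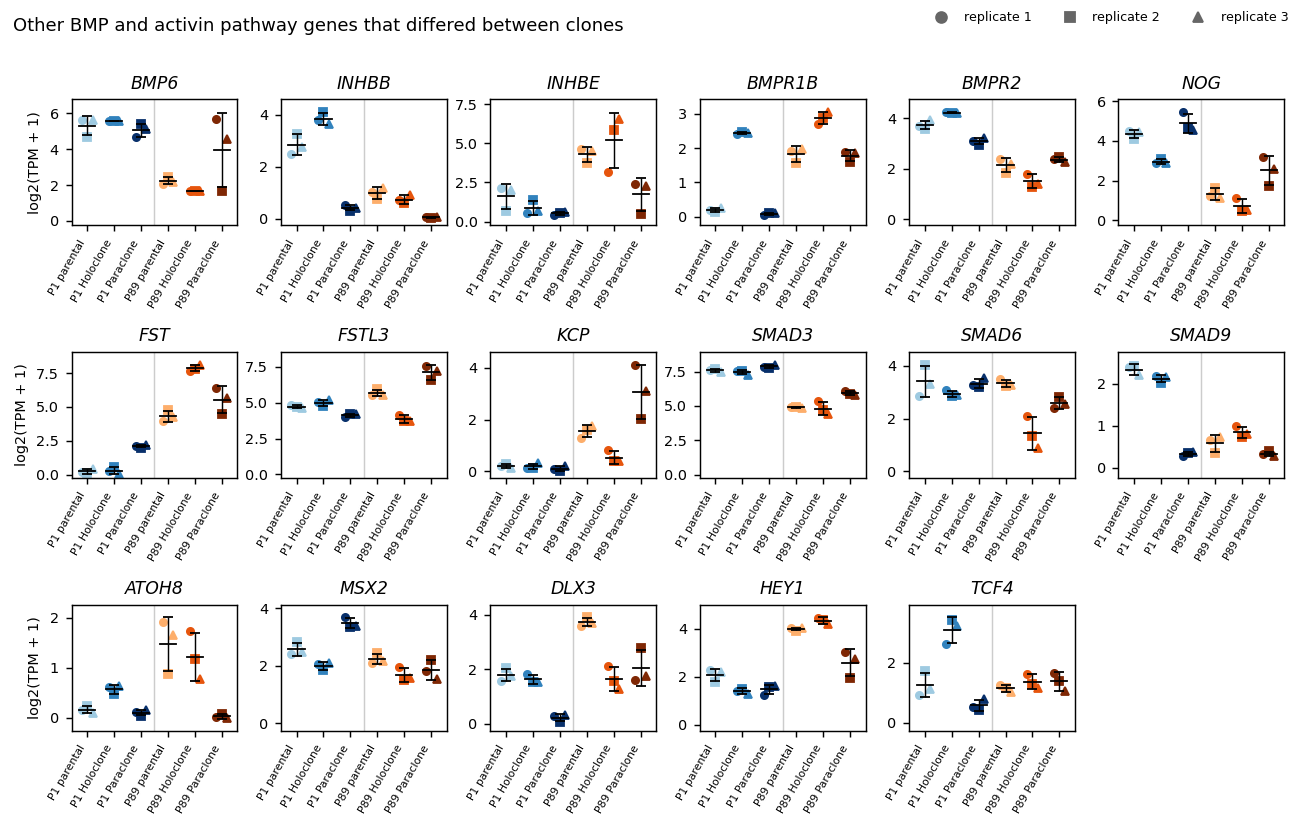
Levels of 17 further BMP and activin pathway genes that passed the naming rule between Holoclone and Paraclone cells of either line. Each panel shows log2(TPM + 1) of every library, with the mean and SD of 3 libraries, on its own axis. *INHBB*, *BMPR1B* and *SMAD9* are higher in Panc1 Holoclone than in Panc1 Paraclone cells, where they are near 0. *SMAD9* is highest in parental Panc1 cells. *FST* and *FSTL3* have opposite orders in the Panc89 clones.

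Of the 11 tested receptors, 5 were higher and 2 lower in Panc1 Holoclone cells (27.4% and 9.97% of all genes), and 3 were higher and 1 lower in Panc89 Holoclone cells, which is near the 22.4% and 13.3% of all genes. *BMPR1B*, a BMP type I receptor, was higher in Holoclone cells of both lines. It was at 4.29 to 4.48 TPM against 0.0436 to 0.0851 TPM in Panc1 (difference 2.34 ± 0.14, adjusted p = 3.84e-09) and at 5.53 to 7.28 TPM against 2.03 to 2.70 TPM in Panc89 (difference 1.09 ± 0.14, adjusted p = 1.74e-05). *BMPR2*, the BMP type II receptor, was higher in Panc1 Holoclone cells by 1.13 ± 0.16 (adjusted p = 5.71e-05) and lower in Panc89 Holoclone cells by −0.87 ± 0.16 (adjusted p = 6.31e-04), and the clone changes of the lines differed (95% interval of the difference −2.49 to −1.51, adjusted p = 7.45e-06). Between the parental cells *BMPR1B* was higher in Panc89 by 1.62, and *BMPR1A* (−1.71), *BMPR2* (−1.59) and the type I receptor *ACVR1* (−1.47) were lower, with 4 receptors higher and 6 lower in total (27.5% and 38.5% of all genes).

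The SMAD genes had 0 higher and 5 lower of 8 in parental Panc89 cells (27.5% and 38.5% of all genes), and 1 of the 5, *SMAD9*, was tested through Panc1 alone. *SMAD3*, which transmits activin and TGF-beta signals, differed most (−2.69 ± 0.17, adjusted p = 1.39e-09), followed by *SMAD9* (−1.76) and the inhibitory *SMAD7* (−1.08). *SMAD9* was at 3.07 to 3.58 TPM in Panc1 Holoclone and at 0.213 to 0.292 TPM in Panc1 Paraclone cells, a difference of 1.80 ± 0.13 (adjusted p = 3.50e-08). The parental Panc1 libraries, at 3.61 to 4.40 TPM, lay above both, so that the Paraclone cells stood apart. In Panc89 Holoclone cells *SMAD3* (−1.12) and *SMAD6* (−1.15), an inhibitory SMAD of the BMP branch, were lower than in Paraclone cells, and the adjusted p of *SMAD6* rose from 0.00571 to 0.0669 when only these groups were fitted.

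Of 6 other BMP target genes, 4 were higher and 0 lower in parental Panc89 cells (27.5% and 38.5% of all genes): the homeobox genes *DLX5* (2.51) and *DLX3* (1.94), and the helix-loop-helix genes *HEY1* (1.90) and *ATOH8* (1.32). *DLX5* and *ATOH8* were tested through Panc89 alone. Between the Panc89 clones, *HEY1* (1.76, adjusted p = 1.64e-05) and *ATOH8* (1.19, adjusted p = 9.91e-04) were higher in Holoclone cells. *ATOH8* reached 1 TPM in 4 libraries, all of parental or Holoclone Panc89 cells. Its higher level in Holoclone cells was thus partly built into its being tested. *HEY1* was at 17.1 to 20.9 TPM in Holoclone and at 2.83 to 7.12 TPM in Paraclone cells, in the same direction as *ID4*. *ID1* was not called between these clones. Between the Panc1 clones, the homeobox gene *MSX2* was lower in Holoclone cells, with 2.60 to 3.24 TPM against 9.32 to 11.9 TPM (difference −1.49 ± 0.19, adjusted p = 1.71e-05), in the direction of *ID1*, and *DLX3* was higher by 1.41 (adjusted p = 7.84e-04). Of the 3 genes of E proteins, the partners that ID proteins bind, *TCF4* was higher in Panc1 Holoclone cells, with 5.10, 9.80 and 8.25 TPM against 0.446, 0.339 and 0.732 TPM (difference 2.50 ± 0.24, adjusted p = 1.01e-06). *TCF12* was lower in parental Panc89 than in parental Panc1 cells by −1.36 (adjusted p = 1.56e-07). It was higher in Holoclone than in Paraclone cells of Panc1 (0.85, adjusted p = 9.06e-05) and Panc89 (0.46, adjusted p = 0.0108). *TCF3* was not called in these comparisons.

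The genes most like each of the 10 in pattern were sought among 10910 tested genes with a group mean of at least 10 TPM, by Pearson's r over the 18 libraries after the mean of the line was taken from each value. *INHBA* was most like *STC1* (r = 0.970) and *GRAMD1B* (0.969), *ID4* most like *RGS16* (0.978) and *NPDC1* (0.951), and *ID1* most like *LRP8* (0.960) and *NAV1* (0.950). For *BMP2* these were *CSNK1E* (0.937) and *TIMP1* (0.915), for *BMP7* *MT1E* (0.933) and *SDHD* (0.928), and for *BMP4* *GCNT1* (0.922) and *MGAT5B* (0.900). *BAMBI* was most like *SLC22A15* (0.920) and *GTPBP2* (0.900), *ID3* most like *ST14* (0.914) and *BLOC1S1* (0.901), and *ID2* most like *TREX1* (0.871) and *EFNA4* (0.856). *INHBA* and *STC1* ran together within each line, with r = 0.979 in Panc1 and 0.947 in Panc89, whereas *BMP4* and *GCNT1* had r = 0.478 in Panc1, where *BMP4* was near 0, and 0.948 in Panc89. Each gene was picked for its r over both lines, so a high r within a line is partly built into the choice. No gene of the 10 was among the candidates, and *MT1E* belongs to a family of similar metallothionein genes among which reads can be divided.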

How the data were processed

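RNA of 3 passages of each cell variant was prepared by the authors as stranded mRNA libraries, sequenced paired-end on a NovaSeq instrument, quantified with kallisto 0.46.1 against Ensembl GRCh38 transcripts and imported to gene level as scaled TPM (tximport). In the deposited table the unit is log2(TPM + 1), read as such because each library, converted back, sums to 985339 to 988066 TPM. TPM keep no depth, so no counting error can be given. Libraries were assigned to groups by their labels. Groups were fitted in limma (version 3.58.1, R 4.3.3) with a variance trend and 1 mean for each of 6 groups, and two-sided p-values were adjusted by Benjamini-Hochberg over 16093 genes that reached 1 TPM in 3 or more libraries. The script was tested on simulated data. The study's DESeq2 test needs counts and was not run. Tables were read with data.table (version 1.17.8).

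Further pathway genes were named, up to 4 for each list and comparison, with an adjusted p under 0.05, an absolute difference over 1, no overlap of libraries and at least 1 TPM in the higher group. *INHBB*, *FST*, *FSTL3*, *NOG*, *BMPR2* and *TCF12* also have values from comparisons where this rule did not name them, chosen after they were seen. *TCF3* was mentioned on the same ground. The 10 genes and the lists were chosen with earlier results of these data known. Alternatives were another pseudocount, 2 other filters, fewer groups, a replicate block, 2 scalings, no trend, stricter thresholds and leaving out each library. Replicate numbers did not pair the libraries: deviations from group means of same-numbered libraries correlated from −0.318 to 0.190 over 18 pairs. GENCODE 44 on GRCh38 places *BMP2* at chr20:6767686-6780246, *BMP4* at chr14:53949736-53958761, *BMP7* at chr20:57168753-57266641, *INHBA* at chr7:41667168-41705834, *GREM1* at chr15:32718004-32745106, *BAMBI* at chr10:28677510-28682932, *ID1* at chr20:31605283-31606515, *ID2* at chr2:8678845-8684461, *ID3* at chr1:23557926-23559501 and *ID4* at chr6:19837370-19842197.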

Additional observations from a re-analysis of the deposited data

Results flagged for a closer look

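For 4 of the 9 tested genes the Holoclone minus Paraclone change differed between the lines by the interaction term of limma-trend. This term was called for 35.1% of all genes tested, 14.8% with a larger value in Panc89. On the log2(TPM + 1) scale, Panc89 minus Panc1, the difference was 2.61 for *ID4*, 1.83 for *ID1*, 1.20 for *INHBA* and 1.01 for *BMP7*. *ID4* was higher in Panc89 Holoclone than Paraclone cells in 3 of 3 libraries against 3 and at 0.0710 TPM at most in the Panc1 clones. *ID4* and *BMP7* reached 1 TPM in parental and Holoclone libraries only. *ID1* was lower in Panc1 Holoclone cells, with no overlap, whereas its Panc89 clones overlapped. *INHBA* and *BMP7* changed in the same direction in both lines, and the call of *BMP7* was lost in 12 of 20 alternative settings, over which its adjusted p lay between 0.00418 and 0.109. The causes were not tested.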

How the results depend on the processing

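Of 550 recomputed differences of single genes, 513 kept their direction and side of the threshold, 15 kept their direction and lost the call, 14 kept it and gained a call, and 8 changed sign; the cause was not tested. All sign changes were of uncalled differences. With single libraries left out, the difference between the Panc89 clones lay between −0.26 and 0.68 for *ID3*, −0.51 and 0.0270 for *BMP4* and −0.72 and 0.0787 for *ID2*, and the difference between the clone changes lay between −0.0288 and 0.77 for *ID2*. With a pseudocount of 0.1 the latter turned to 0.20 for *BMP2*. The number of the 9 genes called between the Panc1 clones was 5 instead of 3 with a pseudocount of 0.1 and 5 with only the groups compared. Of all 16093 genes, 6073 and 6078 were called in these fits, against 6006 in the main fit. Leaving out single libraries gave 4 to 8 calls between the Panc89 clones, with 8 without Holoclone replicate 1, and 3 to 5 for the difference. Of all genes, these fits called 4549 to 6600 between the Panc89 clones (5905 without Holoclone replicate 1) and 4806 to 6072 for the difference. The replicate block gave 9, 3, 4 and 4 calls, as without it, and changed no call of the 9 tested genes. Of all genes it called 10578, 5919, 5661 and 5558. No depth is known, so levels near 0 have no counting error.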
